A study of Homo sapiens with 9 samples.

Results

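The end of the long arm of chromosome 8, from 140 Mb to the last peak at 146300964 in hg19, held a dense run of p300 peaks in PC3 cells. The members were selected on position, and the bounds of the stretch were chosen by the density of peaks in these lists. They are all peaks of the 5 deposited lists whose midpoint lay on chromosome 8 at 140 Mb or beyond. Together they numbered 702 of 19861 peaks (3.53%), on 6.30 Mb or 0.210% of the span between the first and last peaks of the chromosomes. PC3 is 1 established cell line, grown from a metastatic human prostate carcinoma. The untreated group received no drug (2 libraries) and the treated group received MnTE-2-PyP, a porphyrin with a manganese centre and superoxide dismutase activity, at 30 µM for 24 h (3 libraries). The labels write this dose as 30 µm and use T2E as the short name of the drug. Every culture, untreated ones included, then received 20 Gy and was fixed in 1% formaldehyde 1 h later, so no group without radiation was compared here. The libraries are described as biological replicates, and 4 input libraries were not analysed here.

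The coactivator p300 is a histone acetyltransferase that other proteins bring to DNA. It acetylates histones, among them lysine 27 of histone H3, and is a common mark of active enhancers and promoters. Band 8q24.3, which closes the long arm of chromosome 8, is rich in genes, among them PTK2, which encodes focal adhesion kinase, TRAPPC9, PLEC and the heat shock regulator HSF1. Extra copies of 8q are frequent in advanced prostate carcinoma. Copy number was not measured here, and peaks were not assigned to genes because no annotation of hg19 was used.

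The stretch held 84 peaks of untreated list 1 and 88 of untreated list 2. Treated lists 1, 2 and 3 had 177, 350 and 3 members. The whole lists held 2313 and 2039 untreated peaks and 4922, 10059 and 528 treated peaks, and the read depth behind them is unknown. Density chose the stretch, so its values are a description. The untreated lists had 13.3 and 13.97 peaks per Mb here, and the treated lists had 28.1, 55.5 and 0.476. Outside the stretch the genome carried 0.746 and 0.653 peaks per Mb untreated and 1.59, 3.25 and 0.176 treated. The stretch was thus 17.9-fold and 21.4-fold denser in the untreated lists and 17.7-fold and 17.1-fold denser in treated lists 1 and 2. In treated list 3 it was 2.71-fold denser, a value that rests on 3 peaks. The dense label therefore holds for 4 of the 5 lists at their full lengths. With each list cut to its 528 highest scores, the stretch held 0.379% and 2.08% of the untreated peaks. Treated lists 1, 2 and 3 then had 0.189%, 0.189% and 0.568% here, on 0.210% of the span. These values rest on 2, 11, 1, 1 and 3 peaks.

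Peaks did not become dense at 140 Mb itself. The last 0.5 Mb below it held 1 and 1 untreated peaks and 4, 5 and 0 treated peaks, and the first 0.5 Mb above it held 3 and 1 untreated and 2, 1 and 0 treated peaks. The next 0.5 Mb, from 140.5 Mb, had 9 and 4 untreated and 17, 28 and 0 treated peaks. The 0.5 Mb that ends at 141.5 Mb had 3 and 0 untreated and 9, 6 and 0 treated peaks. Over longer windows, the 5 Mb below the start, from 135 to 140 Mb, held 10 and 6 untreated peaks and 21, 23 and 0 treated peaks. The next 5 Mb, from 140 to 145 Mb, held 59 and 67 untreated and 137, 274 and 0 treated peaks. Untreated list 1 had its last peak outside at 139749282 (score percentile 54.4) and its first inside at 140216973 (percentile 5.49). For untreated list 2 these were 139867586 (71.2) and 140416391 (68.2), for treated list 1 139935176 (56.8) and 140071047 (56.3), and for treated list 2 139867627 (75.7) and 140034084 (8.16). In treated list 3 the last peak outside lay at 129756970 and the first inside at 145180490. All 3 members of treated list 3 thus lay beyond 145 Mb.

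A second dense stretch, on chromosome 10 from 75 to 85 Mb, held 15.8 and 8.2 peaks per Mb untreated, while the treated lists had 45.2, 24.9 and 1.3. It was the denser of the 2 stretches in untreated list 1, treated list 1 and treated list 3, and the chromosome 8 stretch was denser in the other 2 lists. The last 6 Mb of chromosome 17, another gene-rich chromosome end, held 5.17 and 6.33 peaks per Mb untreated and 13.2, 33.2 and 0 treated.

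**Figure D1:**
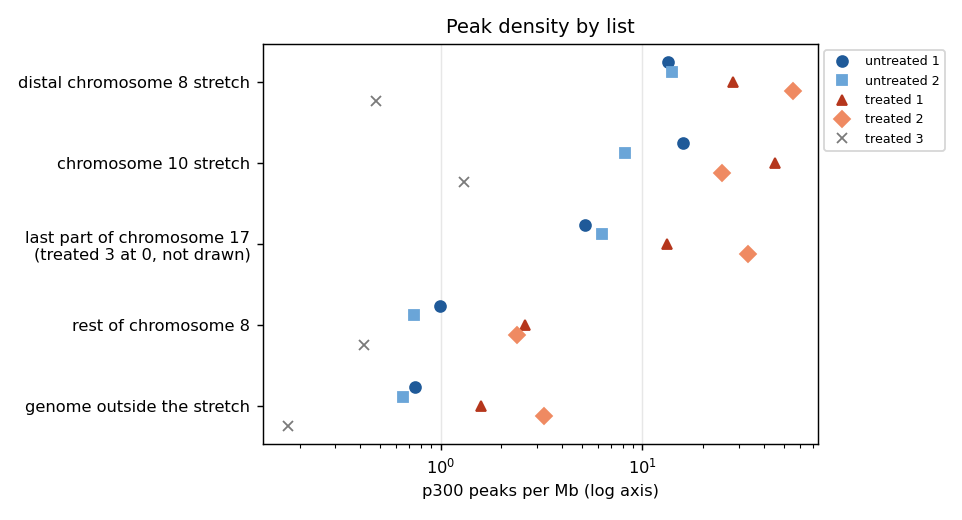
Peaks per Mb (log axis) in 5 parts of the genome, 1 point per list. The chromosome 8 stretch lies at 13.3 to 55.5 peaks per Mb in 4 lists and at 0.476 in treated list 3, against 0.176 to 3.25 in the genome outside it.

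The question of the series was whether MnTE-2-PyP moved p300, and here the share of each list that fell in the stretch was compared. The share was 3.63% in untreated list 1 (95% Wilson interval 2.94 to 4.47%) and 4.32% in untreated list 2 (3.52 to 5.29%). It was 3.60% in treated list 1 (3.11 to 4.15%), 3.48% in treated list 2 (3.14 to 3.86%) and 0.568% in treated list 3 (0.193 to 1.66%). The intervals cover counting error only. At the full list lengths, 4 shares lay close together, with the untreated lists above the treated lists. Treated list 3 lay far below. The lists differ in length, from 528 to 10059 peaks. When each list was cut to its 528 highest scores, the untreated shares were 0.379% and 2.08% and the treated shares 0.189%, 0.189% and 0.568%. Treated list 3 then lay above untreated list 1 and treated lists 1 and 2. Over the full lists, the group means were 3.97% ± 0.484 untreated (SD, n = 2) and 2.55% ± 1.72 treated (SD, n = 3). The difference was -1.43 points. By exact permutation (two-sided) p was 0.2, the smallest value that 2 lists against 3 can give. The share is a density scaled by list length, and density in these lists chose the stretch. Tests on the share, here and below, therefore describe the lists and decide nothing between the groups. The untreated lists lay above all treated lists in 5.8% of 483 windows of the same length over the genome.

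Without treated list 3 the difference was -0.436 points (exact permutation p = 0.333, the smallest possible for 2 against 2), and 13.7% of the windows then had both untreated lists on top. The gap between the lowest untreated and the highest treated list, -0.0355 points in the pair of lists 1, was far smaller than the counting intervals. The groups overlapped when the stretch began 1 Mb further on (exact permutation p = 0.6) or ended at 145 Mb (exact permutation p = 0.6). They also overlapped with each list cut to its 528 highest scores (difference -0.915 points, exact permutation p = 0.4). A score minimum at the pooled median likewise left the groups overlapping, with a difference of -0.616 points.

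The peak names of untreated list 1 and treated list 1 share the string PRO53R105, those of untreated list 2 and treated list 3 share 12.2, and those of treated list 2 hold 10.14. The sources used here do not say what these strings stand for, and pairs with a shared string are given as such. In the first pair the members went from 84 to 177, a log2 ratio of 1.08, while the whole lists differed by a log2 ratio of 1.09. The share differed by -0.0355 points. In the second pair the members went from 88 to 3, a log2 ratio of -4.87, against -1.95 for the whole lists, and the share differed by -3.75 points. With each list cut to its 528 highest scores, the first pair had 2 and 1 members and the second 11 and 3. Each pair holds 1 list per group and could not be tested.

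Along the stretch the peaks ran from a sparse beginning to several crowded places. In bins of 0.5 Mb, the bin from 145.5 to 146 Mb took the largest mean share over the 4 longer lists, with 15 and 14 untreated and 22, 47 and 2 treated peaks. The bin from 143 to 143.5 Mb came next, with 5 and 14 untreated and 20, 57 and 0 treated peaks, followed by that from 144.5 to 145 Mb, with 9 and 13 untreated and 15, 51 and 0 treated peaks. The smallest share was that of the first bin, from 140 to 140.5 Mb, with 3 and 1 untreated and 2, 1 and 0 treated peaks. The 5 fullest of the 13 bins held 51.2% and 70.5% of the members of the untreated lists and 46.9% and 63.7% of those of treated lists 1 and 2. The median bin held 6 peaks of each untreated list, while treated lists 1 and 2 had medians of 15 and 28.

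The profile of untreated list 2 resembled that of treated list 2 more than that of any other list, with Pearson r = 0.93 and Spearman rho = 0.94 over the 13 bins. The other 5 pairs among the 4 longer lists had Pearson r from 0.45, for untreated list 1 and treated list 1, to 0.78, for treated lists 1 and 2. The lists of untreated cells had r = 0.57 with each other. These correlations describe the profile of single lists over neighbouring bins, which share the rise from the sparse first bin. Neighbouring peaks had a median spacing of 33.6 and 30.6 kb untreated, while treated lists 1 and 2 had 16.2 and 8.17 kb.

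**Figure D2:**
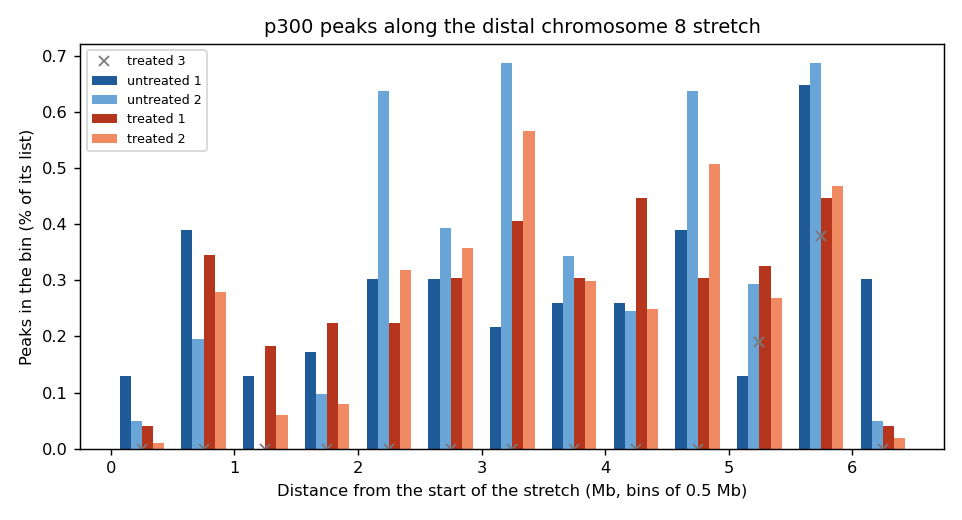
Peaks per bin of 0.5 Mb, as a percentage of all peaks of the list, against distance from the start of the stretch. Bars are the 4 longer lists and crosses are treated list 3, which has peaks in 2 bins only; the first bin is nearly empty and the bin at 5.5 Mb is the fullest on average.

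Bins whose shares did not overlap between the groups were then counted. In 3 of the 13 bins both untreated lists lay above all treated lists, against 5.01% of the 3770 bins of the genome that held a peak, and 11.3% of the 1091 bins with 5 or more peaks. In 0 of the 13 all treated lists lay above both untreated lists, against 0.743% of the genome's bins. Treated list 3 is at 0 in 11 of the 13, which leaves little room for that direction. Without treated list 3 the counts were again 3 and 0, against 7.16% and 12.7% of all bins, and 18.4% of the bins with 5 or more peaks for the first direction. No p is given for single bins, since 2 lists against 3 cannot go below 0.2. Shares of bins are also densities scaled by list length, and density chose the stretch, so these counts are a description.

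The first of the 3 bins was the sparse one from 140 to 140.5 Mb, and the last was that beyond 146 Mb, with 7 and 1 untreated and 2, 2 and 0 treated peaks. The 7 peaks of untreated list 1 there, between 146013223 and 146215750, were 199 to 281 bp wide, had a median score percentile of 17.9, and 0 of the 7 overlapped a peak of another list. In the first and the last of these bins, untreated list 2 had 1 peak, 0.0490% of its list, and treated list 1 had 2, 0.0406%. Both bins thus rest on 1 peak of untreated list 2. The remaining bin was the full one from 145.5 to 146 Mb. There the untreated lists had 0.649% and 0.687% of their peaks and the treated lists 0.447%, 0.467% and 0.379%. Without treated list 2 the count of 3 bins became 5, and without untreated list 1 it became 8. The count of 0 bins with treated lists 1 and 2 on top became 3 without untreated list 1 and 4 without untreated list 2 or treated list 2. For all treated lists it became 1 without untreated list 2.

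The crowded peaks ranked low by the authors' score. The scale of this score is not named in the sources used here, so each peak was placed by its percentile within its own list, where 100 is the highest score. The median percentile of the members was 29.5 and 41.3 untreated, while treated lists 1 and 2 had 37.8 and 40.5 and the 3 peaks of treated list 3 had 33.2. The peaks outside the stretch had medians of 50.9 and 50.3 untreated and 50.9, 47.0 and 50.2 treated. The members thus lay lower in each list, by -21.4 and -9.07 points untreated and -13.1 and -6.46 points in treated lists 1 and 2. The mean over these 4 lists was -12.5 ± 6.53 points (SD, n = 4). An exact two-sided sign-flip permutation over the lists gave p = 0.13, the smallest possible with 4 lists.

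Few members reached the top of their list. The highest-scoring 10% of a list included 1 member of untreated list 1 (1.19%), 2 of untreated list 2 (2.27%), 1 of treated list 1 (0.565%) and 23 of treated list 2 (6.57%). The lowest quartile of the scores included 46.4% and 33.0% of the untreated members and 32.8% and 25.7% of those of treated lists 1 and 2. Treated list 2, the longest list, was the nearest to an even spread. When each list was cut to its 528 highest scores, 2 and 11 untreated members and 1, 1 and 3 treated members were left. The score percentile then differed from the rest of the list by -2.53 points (exact sign-flip permutation p = 0.875), a value over 2, 11, 1 and 1 peaks.

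**Figure D3:**
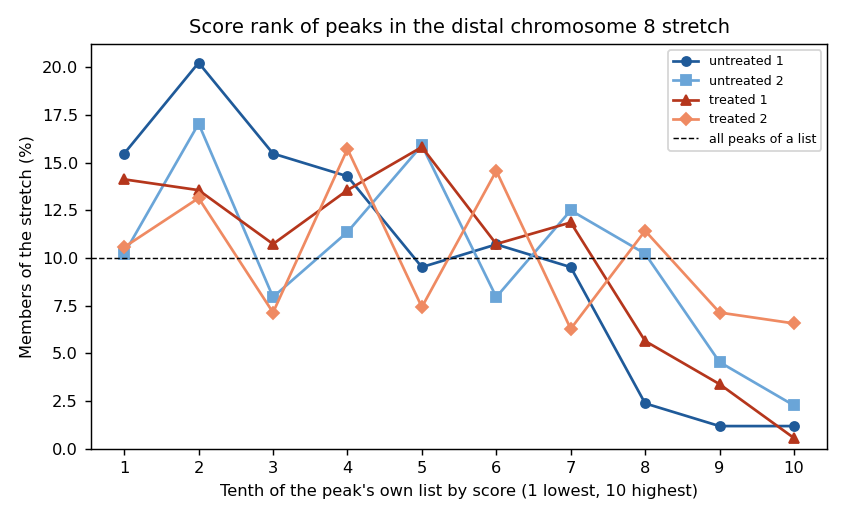
Percentage of the members in each decile of their own list by score, for the 4 longer lists; the dashed line marks the 10% of an even spread. All 4 curves end below the line in the top decile, and the steps in between are uneven. Many peaks share a score, with 1169 different scores among the 10059 peaks of treated list 2, and the untreated curves rest on 84 and 88 members. What made the steps uneven was not tested.

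The highest-scoring member of untreated list 1 and that of treated list 2 lay at the same place, chromosome 8 at 142651958 to 142652405. Its scores were 32.3 (percentile 94.3) and 36.3 (percentile 99.3), and treated list 1 had a peak there with a score of 12.5. The highest member of untreated list 2, at 143307760 to 143308241, had a score of 11.5, and that of treated list 1, the last peak on the chromosome at 146300702 to 146300964, had 15.6. Neither overlapped a peak of another list. The treatment groups did not separate by rank: the mean of the medians was 35.4 ± 8.30 untreated and 39.2 ± 1.91 in treated lists 1 and 2 (SD, n = 2 each), a difference of 3.78 points (exact two-sided permutation p = 1.0). Without untreated list 1 the difference was -2.09 points.

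Members ranked somewhat higher by width than the other peaks in 4 of 4 lists. Median width was 239 and 403.5 bp untreated, while treated lists 1 and 2 had 243 and 365 bp and the 3 peaks of treated list 3 had 236 bp. Elsewhere the medians were 235 and 374 bp untreated and 233, 322 and 243 bp treated. The narrowest peak of a list was 199 and 332 bp untreated and 193, 291 and 200 bp treated, so widths were also ranked within each list. The median width percentile of the members exceeded that of the other peaks by 2.85 and 9.78 points untreated and by 5.29 and 13.6 points in treated lists 1 and 2. The mean was 7.89 ± 4.78 points (SD, n = 4; exact sign-flip permutation p = 0.13). The 2 lists with the larger narrowest width had the larger difference.

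The widest peaks were not more frequent among the members, except in treated list 2, while the narrowest were less frequent in both lists 2. Peaks within 10 bp of the narrowest made up 23.9% of the members of untreated list 2 against 34.1% of its other peaks, and 27.1% against 41.4% in treated list 2. In both lists 1 the percentages were close, at 32.1% and 31.6% untreated and 29.9% and 29.7% treated. Peaks of 700 bp or more numbered 0 and 4 among the untreated members (0% and 4.55%, against 1.88% and 5.84% elsewhere). Treated lists 1 and 2 had 1 and 12 of them (0.565% and 3.43%, against 1.92% and 2.87%), and treated list 3 had 0. The widest was 1317 bp, in treated list 2 at 142380796 to 142382112, with no overlap in another list. The widest members of the other lists measured 518 and 897 bp untreated and 722 and 475 bp in treated lists 1 and 3. Between the groups the medians differed by -17.2 bp and the width percentiles by 3.21 points (exact two-sided permutation p = 1.0 and 0.667). The difference in bp was 65.0 without untreated list 2 and 43.8 without treated list 1. The difference in percentile was -0.0409 without untreated list 1 and -0.941 without treated list 2.

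The stretch was crowded in 4 lists, and the share of its regions held by a single list was near that of the genome. Merging the overlapping peaks of all lists (1 bp or more) gave 632 regions in the stretch. Of these, 573 (90.7%) were held by a single list, against 89.6% over the genome. The 59 in 2 or more lists (9.34%) compare with 10.4% of all 16701 regions. Regions in 3 lists numbered 5 (0.791%, against 2.19% in the genome), those in 4 lists 0 (1.15% in the genome) and those in all 5 lists 1 (0.158%, against 0.886%).

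The region in all 5 lists lay on chromosome 8 at 145180239 to 145181135. Its untreated scores were 7.85 and 9.62 and its treated scores 10.5, 6.57 and 14.8, and its peaks were 360 and 897 bp wide untreated and 297, 422 and 475 bp wide treated. The widest member of untreated list 2 and the highest-scoring of treated list 3 are peaks of this region. The remaining members of treated list 3 lay at 145739640 to 145739863, with a score of 3.82 and no overlap, and at 145959586 to 145959821, with 5.67 and an overlap with treated list 2.

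All 5 regions in 3 lists held at least 1 untreated and 1 treated list, and they were chosen for naming after their values were seen. The strongest was that at 142651958 described above. The region at 145615325 to 145616411 had scores of 5.12 in untreated list 2 and 8.11 and 8.90 in treated lists 1 and 2. The region at 144606114 to 144606980 had 4.98, 6.37 and 6.42 in the same lists. The region at 144940189 to 144940839 was in both untreated lists, with 21.0 and 6.22, and in treated list 2, with 2.90. That at 145247137 to 145247641 had 8.38 in untreated list 1 and 8.17 and 4.60 in treated lists 1 and 2.

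**Figure D4:**
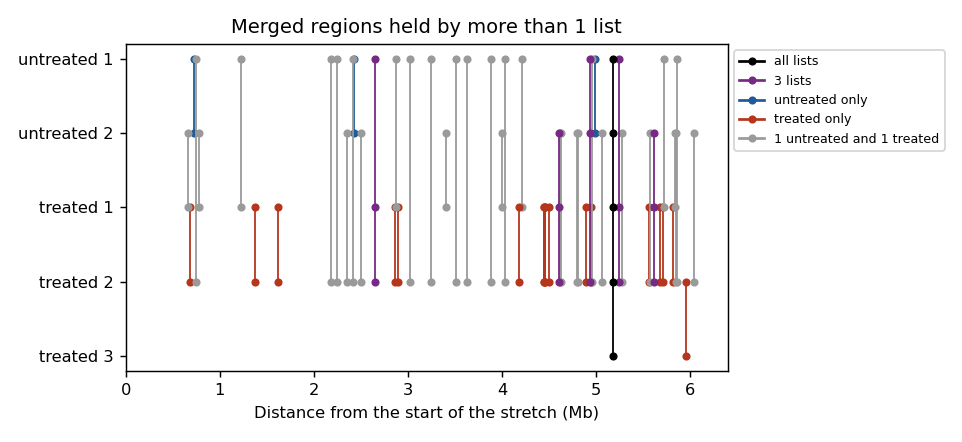
The 59 merged regions held by 2 or more lists, by distance from the start of the stretch. Each line is 1 region, with a point on every list that holds it; 1 region spans all 5 lists, and most of the lines join 1 untreated and 1 treated list.

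Regions held by 2 or more lists of 1 treatment group and by no list of the other were few. Both untreated lists and no treated list held 3 regions (0.475%), against 0.186% of all regions. The first, at 140726390 to 140727002, scored 6.93 in untreated list 1 and 3.35 in untreated list 2. The others lay at 142422272 to 142422799, with 5.55 and 3.79, and at 144993215 to 144993603, with 4.72 and 3.99. Their mean score percentiles were 15.9 to 24.1, so all 3 ranked low.

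At least 2 treated lists and no untreated list held 18 regions (2.85%), against 2.93% over the genome. Of these, 17 were in treated lists 1 and 2, and 1 was in treated lists 2 and 3. The highest-ranked, at 144442956 to 144443443, scored 7.18 in treated list 1 and 6.20 in treated list 2. Then came those at 144184009 to 144184392, with 13.3 and 4.35, and at 145812858 to 145813677, with 7.21 and 5.73. The next were at 144494606 to 144495065, with 6.37 and 5.36, and at 141369152 to 141369711, with 3.27 and 6.20. Their median score percentile over all 18 was 27.6. A further 38 regions (6.01%) were in untreated and treated lists, against 7.32% over the genome. No region was tested alone, since 2 lists against 3 cannot go below an exact two-sided p of 0.2. The count of 59 regions in 2 or more lists was 39 when untreated list 2 was left out. Leaving out treated list 1 gave 32, and leaving out treated list 2 gave 16. The count of 38 became 20 without untreated list 1, 19 without untreated list 2 and 12 without treated list 2. The count of 18 became 1 without treated list 1 and 0 without treated list 2, since both must hold most of these regions. The count of 3 became 68 without untreated list 1 and 64 without untreated list 2, since 1 list then defines it.

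Pairs of lists overlapped at a smaller percentage in the stretch than over the whole lists, for each of the 6 pairs of the 4 longer lists. The untreated lists shared 5 peaks. These were 5.95% of the 84 in list 1 (95% Wilson interval 2.57 to 13.2%) and 5.68% of the 88 in list 2. Over the genome, 16.8% of untreated list 2, there the shorter list, overlapped untreated list 1. Treated lists 1 and 2 shared 23, 13.0% of the 177 in list 1 (8.82 to 18.7%) and 6.57% of the 350 in list 2, against 21.2% of the shorter list over the genome. Both intervals cover counting error only. Of the members of untreated list 1, 7.14% overlapped treated list 1 and 19.0% treated list 2, against 30.7% and 31.99% of the whole list. For untreated list 2 these were 7.95% and 15.9%, against 23.1% and 26.2%. Pairs within a group averaged 9.47% of the shorter list and pairs across groups averaged 12.5%, which differ by -3.04 points. Over the whole lists the averages were 19.0% and 28.0%, which differ by -9.05 points in the same direction. The shorter of the untreated lists was list 1 in the stretch and list 2 over the whole lists. For the stretch, the exact one-sided permutation test for higher overlap within groups gave p = 1.0, with 0.333 as its smallest possible value. Without untreated list 1 the difference was 1.06 points, without untreated list 2 -0.101 and without treated list 1 -11.5.

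The percentage of peaks that overlapped another list was lower among the members than among the other peaks in 4 of 4 lists. It was 28.6% against 43.5% and 26.1% against 33.5% untreated. In treated lists 1 and 2 it was 18.1% against 28.1% and 13.7% against 14.1%. The mean difference was -8.18 ± 6.03 points (SD, n = 4; exact sign-flip permutation p = 0.13). Without treated list 2, the longest list, it was -17.2 points. Score rank moved with this result. When the other peaks were weighted to the score quartiles of the members, their percentages became 34.1% and 28.8% untreated and 20.6% and 12.8% in treated lists 1 and 2. The mean difference was then -2.45 ± 2.64 points (exact sign-flip permutation p = 0.25), and it was 0.935 in treated list 2.

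**Figure D5:**
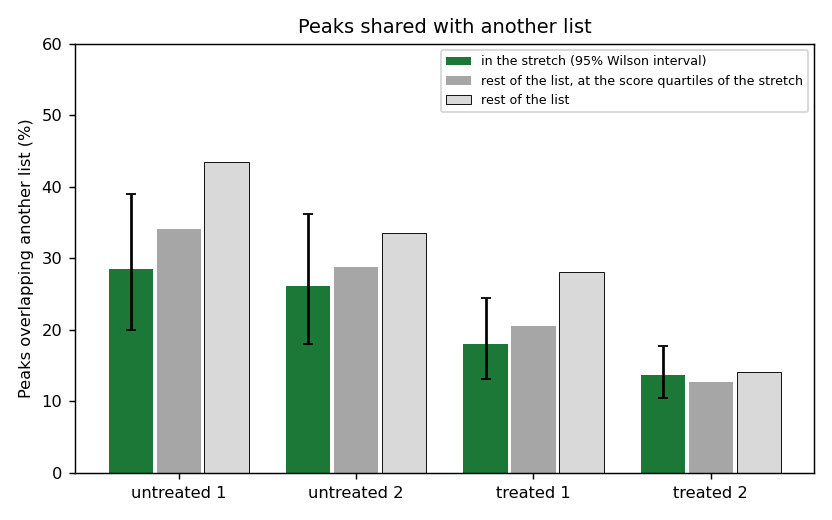
Percentage of peaks that overlap a peak of any other list, for the members (green, with 95% Wilson intervals), the other peaks weighted to the members' score quartiles (dark grey) and all other peaks (light grey). Green lies under light grey in each of the 4 lists, and the interval of the members takes in the dark grey bar in each.

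Score and overlap went together less closely inside the stretch than outside. Outside, peaks that overlapped another list had a median score percentile 26.5 and 25.3 points above peaks that did not in the untreated lists, and 33.8 and 37.9 points above in treated lists 1 and 2. Among the members the same difference was 14.9 and 4.86 points untreated, and 3.55 and -7.18 points in treated lists 1 and 2. The gap between the 2 settings averaged -26.9 ± 14.3 points and had the same sign in 4 of 4 lists (exact sign-flip permutation p = 0.13). In the top quartile of scores 50% and 36.4% of the untreated members overlapped another list, against 73.7% and 59.8% of the other peaks. In treated lists 1 and 2 these were 23.1% and 18.8% against 57.2% and 32.9%. The members in that quartile number 4, 11, 13 and 69, and 1, 2, 1 and 23 of them were in the highest-scoring 10% of their list. Both the scarcity of high scores among the members and the density of the stretch enter these comparisons. Their part was not tested. In the lowest quartile the difference was -0.132 points on average, with 2 lists above and 2 below (exact sign-flip permutation p = 1.0).

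Members that did not overlap were often near a peak of another list. They numbered 60 and 65 untreated, and 145 and 302 in treated lists 1 and 2. Of these, 68.3% and 76.9% lay within 5 kb of one untreated, and 60% and 55.0% in treated lists 1 and 2. Of the other peaks without an overlap 31.1% and 25.7% did so untreated, and 28.0% and 12.5% in treated lists 1 and 2. Within 500 bp lay 11.7% and 16.9% of these untreated members, against 6.67% and 5.47% elsewhere. In treated lists 1 and 2 it was 14.5% and 8.61%, against 6.24% and 2.65%. The density of the stretch, which chose it, enters these distances, so they are given without a test.

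Against the other dense places, the members ranked near those of the chromosome 17 end by score and lay between both other places in overlap. The score percentile was 2.53 points above that of the chromosome 17 end on average, higher in 3 of 4 lists (exact sign-flip permutation p = 0.5, 0.5 after Benjamini-Hochberg adjustment over 12 such comparisons). It was -5.54 points from the chromosome 10 stretch, lower in 3 of 4 (exact permutation p = 0.25, adjusted 0.3), and -23.0 points from the rest of chromosome 8, lower in 4 of 4 (exact permutation p = 0.13, adjusted 0.167).

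Overlap with another list was lower than in the chromosome 10 stretch in 4 of 4 lists, where 40.5% and 58.5% of peaks were shared untreated, and 29.6% and 45.8% in treated lists 1 and 2. The mean difference was -22.0 ± 11.8 points (exact sign-flip permutation p = 0.13, adjusted 0.167). At the end of chromosome 17 these were 12.9% and 10.5% untreated and 10.1% and 3.52% treated, below the members in 4 of 4 lists, by 12.4 ± 3.90 points (exact sign-flip permutation p = 0.13, adjusted 0.167). By width percentile the members ranked below the chromosome 10 stretch in 4 of 4 lists. The medians there were 57.0 and 62.9 untreated and 57.3 and 67.4 in treated lists 1 and 2, against 52.7, 59.2, 55.0 and 63.3 for the members. The mean difference was -3.62 ± 0.908 points (exact sign-flip permutation p = 0.13, adjusted 0.167). They ranked above the end of chromosome 17 in 4 of 4 lists, by 8.74 ± 4.54 points (exact sign-flip permutation p = 0.13, adjusted 0.167). Against the rest of chromosome 8 the difference was 4.01 ± 7.81 points, higher in 3 of 4 lists (exact sign-flip permutation p = 0.38, adjusted 0.409).

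Of the 12 comparisons, 9 reached the smallest possible p of 0.13 and 0 had an adjusted p under 0.05, which 4 lists cannot give.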

How the data were processed

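Immunoprecipitated p300 chromatin of irradiated PC3 cells, in fragments of 100 to 300 bp, was read on an Ion Proton, per the labels' protocols. Peaks were called per library with MACS2 on hg19, per the submitters' processing notes; its version, threshold and inputs, and the aligner, are not stated in the sources used here. Deposited lists give position, name and a score per peak, whose scale is not named. Depth is unknown.

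Lists were the replicates. Group differences used exact two-sided permutation over lists; members and other peaks were compared by exact sign-flips over 4 lists, leaving out treated list 3, which has 3 members. Overlap meant 1 bp or more. Groups came from sample titles. The members, lists and named regions were chosen with earlier results of these data known. The rule for named regions took regions in all 4 longer lists, up to 5 in 1 group only by mean score percentile, each list's highest and widest peak, and the fullest and emptiest bins. Alternatives were other stretch bounds, bin widths, score minima, overlaps, left-out lists and pairings; the bound at 145 Mb, the score weighting, the bins with 5 or more peaks and the tests on score and overlap were added after seeing the data. Counting was tested on simulated data. Python 3.11.15, numpy 2.4.6, pandas 2.3.3, scipy 1.17.1 and statsmodels 0.14.6 were used.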

Additional observations from a re-analysis of the deposited data

Results flagged for a closer look

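The number of members went up in 1 and down in the other pair of lists that share a string in their peak names. The log2 ratio of treated over untreated was 1.08 for untreated list 1 and treated list 1 and -4.87 for untreated list 2 and treated list 3. Each pair holds 1 list per group, so the difference was not tested. The whole lists moved in the same directions, by 1.09 and -1.95. With each list cut to its 528 highest scores, the first pair had 2 untreated and 1 treated members and the second 11 and 3.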

How the results depend on the processing

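Of 178 alternative values, 137 kept their sign or, for counts, stayed within 1.5 times, 32 counts moved further and 9 values changed sign. Averaged over the lists, the lower score and overlap and the greater width of members kept their sign in every setting run. Single lists did not always do so. With the score weighting, the overlap difference of treated list 2 was 0.935 points. At the 528 top scores, members ranked above the rest by score in untreated list 1 and treated list 2. In untreated list 2 and treated list 1 they ranked below it. The difference in mean share also kept its sign, but density chose the stretch, so it decides nothing between the groups. It was -1.43 points with treated list 3 and -0.436 points without it. A score minimum at the pooled median left 16 regions in 2 or more lists, 12 in both groups, 1 in the untreated group only and 3 in the treated group only, and gave a width percentile difference of -2.67 and 3 bins with treated lists 1 and 2 on top. The 528 top scores left 2, 2, 0 and 0 regions, a width percentile difference of -9.85 and 1 bin with untreated lists on top, with or without treated list 3. Bins of 0.25 Mb gave 3 bins with treated lists 1 and 2 on top, and the first 5 Mb gave 1 bin with untreated lists on top, with or without treated list 3. Pairing by the shared string in the peak names gave a width percentile difference of -5.86.

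Leaving out 1 list gave -2.09 to 9.65 for the difference in score percentile, -99.5 to 65.0 bp in width, -0.941 to 7.35 in width percentile and -11.5 to 1.06 in overlap. It gave 16 to 58 regions in 2 or more lists, 12 to 38 in both groups, 3 to 68 in the untreated group only and 0 to 20 in the treated group only. Bins ran from 3 to 8 with untreated lists on top, with or without treated list 3, from 0 to 1 with all treated lists on top and from 0 to 4 with treated lists 1 and 2 on top. Fewer lists then define each count. With the replicate number as a replicate block the differences were -0.436 points in share, -17.2 bp, 3.21 and 3.78 points, and no sign changed; the numbers are not shown to pair the samples. Depth is not given, so a missing peak cannot be told apart from a shallow library.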
